A study of Mus musculus with 8 samples.

Results

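Fibroblasts are the cells of connective tissue that make and secrete its matrix, and fibroblasts of the mouse embryo are widely used as feeder layers under embryonic stem cells. Of 30 genes taken as markers of fibroblasts and feeder cells, 27 had a probe on the array, with 41 probes among 25697, out of 16593 named genes in all. The genes were listed as typical of these cells, with earlier results of these arrays known, and every probe that the array's annotation gives to their symbols was read. Col6a3, Fbn1 and Fn1 had no probe named in that annotation and were not analysed here. Of the 27 genes, 17 had a probe above background on at least 2 of 8 arrays (detection p under 0.01) and entered the tests, and 10 did not.

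The lines were 8 embryonic stem cell lines of the mouse, and RNA of each was hybridised to 1 Illumina bead array. The 6 tNT lines came from tetraploid nuclear transfer and are labelled tetraploid, and the 2 NT lines came from nuclear transfer and are labelled not tetraploid. In nuclear transfer a somatic nucleus is placed in an egg without its own nucleus, and by its title the series is about a pair of such nuclei in 1 egg. Passage, a count of the splits of a culture, is taken from the numbers in the design text, which are 17, 19, 25, 29, 18 and 25 for tNT lines 1 to 6 and are not given for the NT lines. All 8 lines are of mixed strain, and all carry the note of a double sedimentation, a term the labels leave undefined. Each line stands for itself, with no repeat array, and the labels name neither the medium nor the feeder cells. The 13 embryonic stem cell markers with a probe were above background on all 8 arrays.

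Fibroblasts secrete fibrillar collagens, which form the cables of the matrix, collagen VI, which forms fine beaded filaments near the cell surface, and small proteins that bind to both. The fibres are made stable outside the cell by cross-linking, and the matrix is read by receptors on the surface of the cells. Twist1, Twist2 and Prrx1 are transcription factors of mesenchymal cells, and Vim, an intermediate filament protein, is also made by many other cells, mouse embryonic stem cells among them. RNA of these genes in a stem cell culture can come from feeder cells, from differentiated progeny or from the stem cells themselves. In a bulk sample, more cells of a type and more RNA per cell cannot be told apart.

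The promoters of 4 members are shown because Thbs2, Twist1 and Fbln2 were all highest in the same line, tNT line 2. Sparc was below its median over the 8 arrays in that line. Each runs 5′ to 3′ on the gene's strand from 250 bases before to 50 bases after the RefSeq gene start in assembly GRCm38.p6. Thbs2 lies at chr17:14694213-14694512 on the minus strand, Twist1 at chr12:33957421-33957720 on the plus strand, Fbln2 at chr6:91212514-91212813 on the plus strand and Sparc at chr11:55420031-55420330 on the minus strand. Capitals mark TATAAA (the TATA box), CCAAT (the CCAAT box) and CANNTG (the E-box, the kind of site that Twist proteins bind), each on either strand.
Thbs2: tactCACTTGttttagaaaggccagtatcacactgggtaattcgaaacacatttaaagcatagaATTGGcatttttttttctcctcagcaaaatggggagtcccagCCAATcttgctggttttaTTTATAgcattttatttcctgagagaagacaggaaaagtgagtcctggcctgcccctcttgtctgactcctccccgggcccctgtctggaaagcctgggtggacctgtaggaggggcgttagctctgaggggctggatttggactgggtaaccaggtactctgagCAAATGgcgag
Twist1: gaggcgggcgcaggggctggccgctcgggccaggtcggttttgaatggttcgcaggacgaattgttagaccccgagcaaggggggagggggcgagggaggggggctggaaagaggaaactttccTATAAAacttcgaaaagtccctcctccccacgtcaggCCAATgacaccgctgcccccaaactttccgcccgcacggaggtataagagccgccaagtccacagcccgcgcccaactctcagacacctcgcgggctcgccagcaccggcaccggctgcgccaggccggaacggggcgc
Fbln2: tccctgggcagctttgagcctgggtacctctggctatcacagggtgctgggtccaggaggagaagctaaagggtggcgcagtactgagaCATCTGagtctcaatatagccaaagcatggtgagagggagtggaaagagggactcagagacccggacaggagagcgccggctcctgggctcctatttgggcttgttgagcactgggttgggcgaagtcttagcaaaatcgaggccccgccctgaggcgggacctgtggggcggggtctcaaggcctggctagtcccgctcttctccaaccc
Sparc: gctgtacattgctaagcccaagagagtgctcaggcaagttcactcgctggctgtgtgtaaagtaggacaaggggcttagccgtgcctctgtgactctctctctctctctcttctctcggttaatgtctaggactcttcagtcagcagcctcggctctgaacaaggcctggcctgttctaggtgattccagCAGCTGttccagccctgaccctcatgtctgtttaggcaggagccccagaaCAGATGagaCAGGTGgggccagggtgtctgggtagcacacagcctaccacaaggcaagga

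Thbs2 had a TATA box 126 bases before the start, CCAAT boxes at 186 and 144 bases, and E-boxes at 246 bases before and 39 bases after it. Twist1 had a TATA box 126 bases and a CCAAT box 89 bases before the start and no E-box in this window. Fbln2 had 1 E-box, 161 bases before the start. Sparc had 3 E-boxes, at 60, 10 and 1 bases before the start, and neither of the other motifs. Over the 20 promoters listed for 18 of the 30 genes, TATAAA was present in 6, CCAAT in 6 and CANNTG in 7. Over all 32851 promoters in the table the shares were 13.6%, 37.4% and 72.3%. A match is a string of letters and not a measured site. Col1a1, Thy1, Dcn, Ccl2, Lum, Thbs1 and Cdh11 are among the members without an entry in the table.

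The members differed first in whether their probes rose above background, as the plot of marker levels on the 8 arrays shows. Normalized log2 intensities, which are used throughout, were between 9.70 and 10.29 for Sparc, a matrix protein that binds collagen, and between 9.78 and 10.09 for Vim. Thy1, Dcn, Igfbp7, Fbln2, Col5a1, Thbs2, Lox, Col6a1, Col1a1, Twist1 and Timp3 were also above background on all 8 arrays. Lum was above background on 6 arrays, Thbs1 on 5, Ccl2 on 4 and Cdh11 on 3. Levels of different probes are not set against each other here beyond whether they rose above background.

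**Figure D1:**
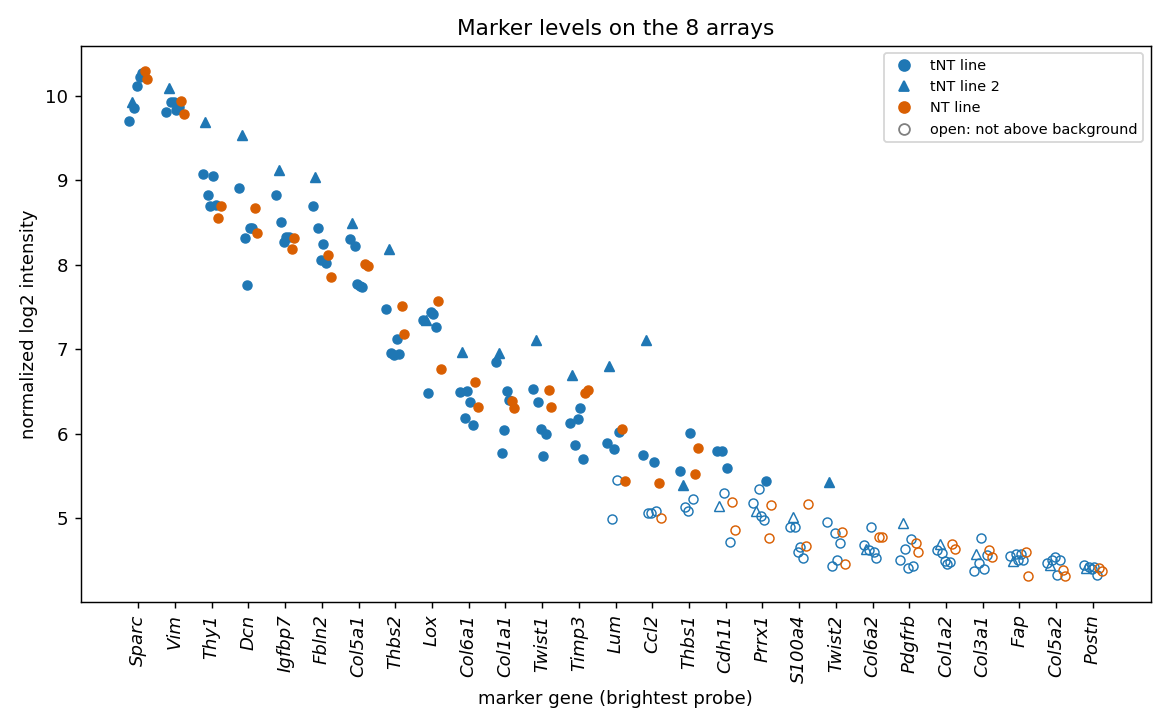
Normalized log2 intensity (vertical axis) of the brightest probe of each of the 27 marker genes (horizontal axis, ordered by mean) on each array; triangles are tNT line 2, circles the other tNT lines and the NT lines by colour, and open symbols are values not above background. The genes on the left are above background on all arrays, the triangle is the topmost symbol in most of the genes above background, and the genes on the right are open symbols on nearly every array.

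Several of the most typical fibroblast genes were not measurable in any line. Col1a2, which makes the partner chain of Col1a1 in collagen I, had raw intensities between 92.0 and 117 and a lowest detection p of 0.183 over the 8 arrays. The 2 probes of Col3a1, the chain of collagen III, had lowest detection p-values of 0.108 and 0.157. Postn, a matrix protein of activated fibroblasts, reached 0.598, Fap, a surface protease of activated fibroblasts, 0.281, and Pdgfrb, a receptor for platelet-derived growth factor found on pericytes and fibroblasts, 0.0840. Col5a2, Col6a2 and S100a4, a calcium-binding protein, reached 0.401, 0.0815 and 0.0175. Twist2 was above background on 1 array, that of tNT line 2, and 1 of the 4 probes of Prrx1 on 1 array, that of tNT line 6. A probe without signal gives no level for its gene, since the sensitivity of each probe is unknown. Of the 41 probes, 18 were above background on no array and 20 on at least 2.

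Among the tested members, tNT line 2 stood highest. It had the highest value of the 8 arrays in 13 of 17 members, against 21.0% of all 8816 tested genes or unnamed probes. It exceeded the next array by at least 0.3 on the log2 scale in 8 of 17 members, against 4.58% of all tested. This line was singled out from its values, so these counts are a description with no test. The median deviation of the 17 members from each gene's own median over the 8 arrays was 0.56 in tNT line 2, 0.30 in tNT line 1, 0.13 in NT line 1 and 0.06 in tNT line 5. It was -0.07 in both tNT line 4 and NT line 2, -0.16 in tNT line 6 and -0.19 in tNT line 3. The same median over all tested was between -0.01 and 0.01 in each line.

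**Figure D2:**
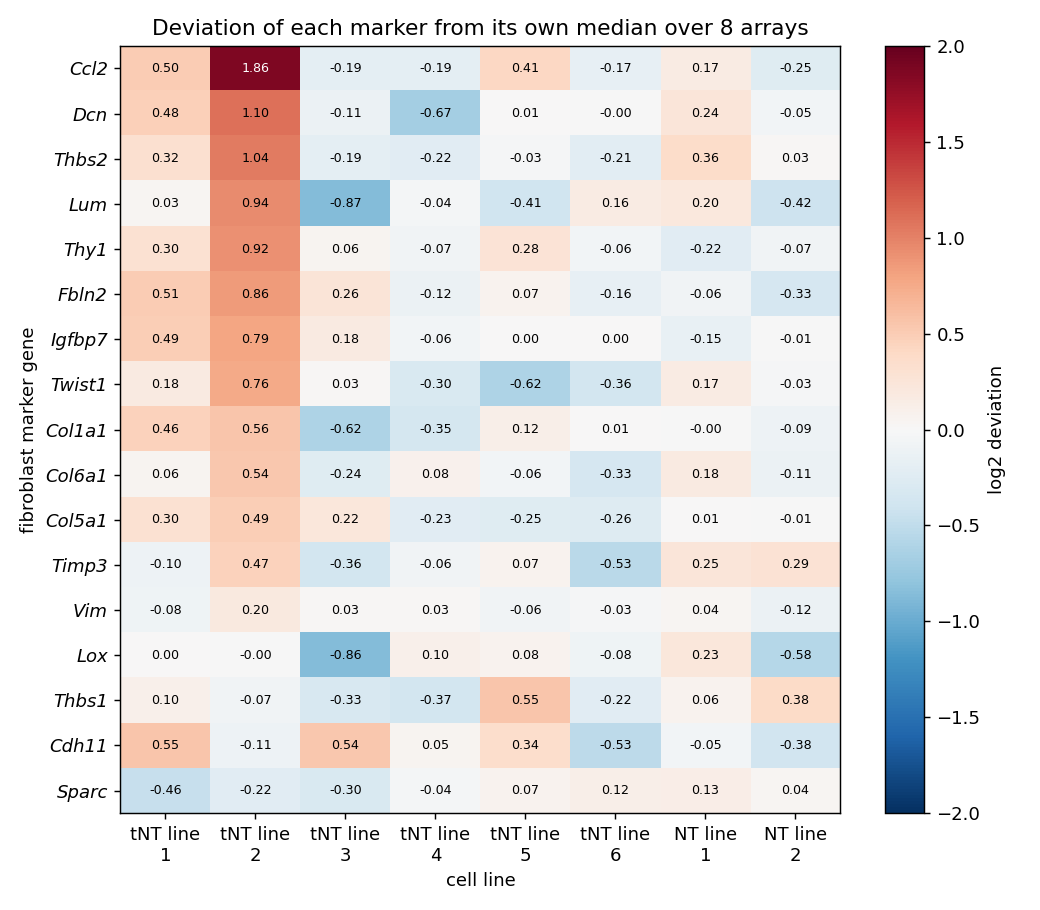
Deviation of each of the 17 tested markers (rows) from its own median over the 8 arrays, in log2 units, for each line (columns); red is above and blue below the median. The column of tNT line 2 is positive for 13 markers, from 1.86 for Ccl2 to 0.20 for Vim, and negative or near 0 for Lox, Thbs1, Cdh11 and Sparc.

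Ccl2, a chemokine that draws monocytes and is secreted by fibroblasts, varied the most. Its log2 intensities were 5.75, 7.11, 5.06, 5.06, 5.66 and 5.08 in tNT lines 1 to 6 and at 5.42 and 5.00 in the NT lines. It was above background in tNT lines 1, 2 and 5 and in NT line 1 only, and its level in tNT line 2 was 4.08-fold the median of the other 7 arrays, a median that itself was not above background.

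Dcn and Lum, decorin and lumican, are small proteoglycans that bind collagen fibrils. Dcn was at 8.91, 9.53, 8.32, 7.76, 8.44 and 8.43 in tNT lines 1 to 6 and at 8.67 and 8.38 in the NT lines. It was 2.15-fold higher in tNT line 2 than the median of the other 7 arrays and lowest in tNT line 4. A dimmer second probe of Dcn read 6.62, 7.48, 5.67, 6.18, 6.68, 6.36, 6.48 and 5.96 in the same order. The 2 probes had a Pearson correlation of 0.790 over the 8 arrays, and both put tNT line 2 highest, but the second put tNT line 3 lowest. Lum was at 5.89, 6.80, 4.99, 5.82, 5.45 and 6.02 in the tNT lines and at 6.06 and 5.44 in the NT lines. It was not above background in tNT lines 3 and 5 and stood 1.97-fold over the median of the others in tNT line 2.

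Thbs1 and Thbs2, the secreted thrombospondins, differed in tNT line 2 and in the line where each was highest. Thbs2 was at 7.47, 8.19, 6.96, 6.93, 7.12 and 6.94 in tNT lines 1 to 6 and at 7.51 and 7.18 in the NT lines, highest in tNT line 2 at 2.11-fold the median of the others. Thbs1 was at 5.56, 5.39, 5.13, 5.09, 6.01 and 5.23 in the tNT lines and at 5.52 and 5.83 in the NT lines, highest in tNT line 5. Thbs1 was not above background in tNT lines 3, 4 and 6, and in tNT line 2 it was at 0.912 of the median of the other arrays.

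The remaining matrix proteins fell on either side of this pattern. Fbln2, fibulin 2, which binds elastic fibres and basement membranes, was at 8.69, 9.04, 8.44, 8.06, 8.25 and 8.02 in tNT lines 1 to 6 and at 8.12 and 7.85 in the NT lines. Igfbp7, a secreted binder of insulin-like growth factors, was at 8.82, 9.12, 8.51, 8.27, 8.33 and 8.33 in the tNT lines and at 8.18 and 8.32 in the NT lines. Both were highest in tNT lines 2 and 1, in that order, at 1.90-fold and 1.73-fold the median of the other arrays in tNT line 2. Timp3, an inhibitor of matrix metalloproteinases, was 1.44-fold over that median in tNT line 2, with a range from 5.70 in tNT line 6 to 6.70. A dimmer probe of Fbln2 was above background in tNT line 1 only and did not put tNT line 2 highest. It read 5.84 in tNT line 1, 5.26 in tNT line 4 and 5.03 in tNT line 2. The remaining probe of Fbln2 was above background on no array.

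Sparc was lower in tNT line 2 than in most other lines. It was at 9.70, 9.93, 9.85, 10.11, 10.22 and 10.27 in tNT lines 1 to 6 and at 10.29 and 10.20 in the NT lines, so its 3 lowest values were those of tNT lines 1, 3 and 2. In tNT line 2 it was at 0.829 of the median of the other arrays. A second probe of Sparc, at 9.04, 8.86, 8.88, 9.09, 9.17, 9.26, 9.27 and 9.20 in the same order, put the same 3 lines lowest. Lox, the enzyme that oxidises lysines of collagen and elastin for cross-linking, was at 7.35, 7.34, 6.48, 7.44, 7.42 and 7.26 in the tNT lines and at 7.57 and 6.77 in the NT lines. Its level in tNT line 2 was close to the median of the others (0.994-fold), and tNT line 3 was set apart at the low end.

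The collagens above background were under 2-fold higher in tNT line 2. Col1a1, the main chain of collagen I, was at 6.85, 6.95, 5.77, 6.04, 6.51 and 6.40 in tNT lines 1 to 6 and at 6.39 and 6.30 in the NT lines. Col5a1, of collagen V, which starts fibrils, was at 8.30, 8.49, 8.22, 7.77, 7.75 and 7.74 in the tNT lines and at 8.01 and 7.99 in the NT lines. Col6a1, of collagen VI, ranged from 6.10 in tNT line 6 to 6.97 in tNT line 2. All 3 were highest in tNT line 2, at 1.47-fold, 1.41-fold and 1.52-fold the median of the other arrays, and tNT line 1 was close to it for Col1a1 and Col5a1. For Col6a1, a second probe above background on 3 arrays also put tNT line 2 highest, and its correlation with the brighter probe was 0.624 over the 8 arrays. The partner chains Col1a2, Col5a2 and Col6a2 gave no signal, so whole collagen molecules cannot be judged from these values.

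Among the surface proteins, Thy1, a lipid-anchored protein of fibroblasts, neurons and thymocytes, was at 9.07, 9.69, 8.83, 8.70, 9.05 and 8.71 in tNT lines 1 to 6 and at 8.55 and 8.70 in the NT lines. It was 1.97-fold over the median of the other arrays in tNT line 2. Cdh11, a cadherin of mesenchymal cells, was at 5.80, 5.14, 5.79, 5.30, 5.59 and 4.72 in the tNT lines and at 5.19 and 4.86 in the NT lines. It was above background in tNT lines 1, 3 and 5 only, and so not in the line where most of the other markers were highest. Twist1 was at 6.53, 7.11, 6.38, 6.05, 5.73 and 5.99 in the tNT lines and at 6.52 and 6.32 in the NT lines. Its value in tNT line 2 was 1.73-fold the median of the others, while tNT line 5, of similar passage, was the lowest. Vim was at 9.81, 10.09, 9.92, 9.92, 9.83 and 9.87 in the tNT lines and at 9.94 and 9.78 in the NT lines, and with a range of 0.31 it varied the least of the 17 members. The highest and lowest array differed by at least 2-fold in 10 of 17 members, against 21.3% of all tested.

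The array of tNT line 2 also had the highest mean raw intensity, 531.1 against 413.6 to 505.6 on the others, and the highest median intensity of probes above background on no array, 108.7 against 92.2 to 107.3. Among the 18 member probes above background on no array, tNT line 2 had the highest raw intensity in 11, against 34.7% of the 13108 probes of that kind. It had the highest normalized value in 4, against 12.4%. Of the 17 members, 5 lie on chromosomes 2, 6 and 8. The median deviations of all tested genes there in tNT line 2 were -0.18, 0.14 and 0.13. These were the farthest from 0 among the chromosomes of the members. The other 12 members had a median deviation of 0.78 in tNT line 2. After the median of each gene's chromosome was subtracted the median over all 17 was 0.68, with 14 of 17 above their chromosome. The part of any chromosome in the marker levels was not tested. With no quantile step, with the authors' processed values and with the other 2 normalizations tried, tNT line 2 was again highest in 13 of 17.

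With tNT line 2 included the members varied together across the lines, and without it they did so less. Over the 8 arrays the median Pearson correlation of the 136 pairs of members was 0.49, with 109 pairs positive, against 0.0008 over pairs of all tested. The first principal component held 64.5% of the members' variance, against 35.7% for all tested. Its score was 2.90 in tNT line 2, 0.79 in tNT line 1, 0.07 in NT line 1 and between -0.98 and -0.30 in the others. Its largest weight was on Ccl2, at 0.52, followed by Dcn at 0.36, and Ccl2 was above background on only 4 arrays. Without tNT line 2 the median correlation was 0.21, with 93 of 136 pairs positive, and the first component held 35.2%, against 43.0% for all tested. All points share 1 array per line and 1 normalization, and tNT line 2 was singled out from its high values. These values are therefore descriptions with no p.

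Thbs2, Ccl2 and Dcn had the highest median correlations with the other members, at 0.75, 0.72 and 0.72 over the 8 arrays. Those of Thbs1 and Cdh11 were 0.08 and 0.01, and that of Sparc was -0.32. The pair Fbln2 and Igfbp7 correlated at 0.94 over the 8 arrays and at 0.85 without tNT line 2, and Sparc with Igfbp7 at -0.75 and -0.92. Without tNT line 2, tNT line 1 was the highest of the 7 arrays in 9 of 17 members, against 13.2% of all tested. As tNT line 1 was also picked from its values, this count is a description with no test.

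Of 8133 named genes that are no members, 43 had a Pearson correlation over 0.9 with the mean deviation of the members over the 8 arrays. The 8 highest were Bgn (0.997), Tnc (0.983), Sec63 (0.977), Gspt1 (0.974), Serpinf1 (0.957), Lyz1 (0.952), Dram1 (0.950) and Timp2 (0.944). Bgn encodes biglycan, a proteoglycan related to decorin, and Tnc tenascin C, a matrix glycoprotein. Bgn was at 9.95, 10.54, 9.41, 9.42, 9.74 and 9.44 in tNT lines 1 to 6 and at 9.85 and 9.54 in the NT lines. Tnc was at 8.20, 8.75, 7.36, 7.37, 7.87 and 7.59 in the tNT lines and at 7.89 and 7.51 in the NT lines. Both were highest in tNT lines 2 and 1. Over the 7 arrays without tNT line 2, 20 genes were over 0.9. The 8 highest were Ogfrl1 (0.995), Bgn (0.988), Huwe1 (0.973), Lage3 (0.962), Tnc (0.961), Dram1 (0.942), 4930550L24Rik (0.941) and Mtdh (0.937), so Bgn, Tnc and Dram1 were among the 8 in both. All were picked by their correlation. How many unrelated genes would pass 0.9 over so few arrays was not tested, so both counts are descriptions.

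The first tested question was whether tNT and NT lines differ in these genes. In limma, 0 of 17 members passed the threshold, an adjusted p under 0.05 over all tested, against 1.86% of all tested. At an unadjusted p under 0.05 there were also 0 of 17, against 18%. The mean was higher in tNT lines for 11 members and lower for 6, with a median difference of 0.05 on the log2 scale, against 0.01 over all tested. Adjusted p-values of the members were between 0.421 and 0.967. Without tNT line 2 the balance turned, with 7 members higher, 10 lower and a median of -0.04. With line number as a replicate block 14 were higher and 3 lower, with a median of 0.44. That block sets only tNT lines 1 and 2, where the members were highest, against the NT lines, since no NT line has the numbers 3 to 6.

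The largest difference was that of Fbln2, at 8.42 ± 0.40 (SD, n = 6) over tNT lines against 7.98 ± 0.19 (SD, n = 2) over NT lines, or 0.44 with a standard error of 0.26 (limma, adjusted p = 0.421). Ccl2 differed by 0.41 with a standard error of 0.48 (adjusted p = 0.714), and its SD among tNT lines was 0.79. Without tNT line 2 the difference of Ccl2 was 0.11. Thy1 was at 9.01 ± 0.37 (SD, n = 6) over tNT lines against 8.62 ± 0.11 (SD, n = 2) over NT lines (limma, adjusted p = 0.440). It was the only member whose groups did not overlap, against 21.7% of all tested, and the lowest tNT and the highest NT value were both 8.70 at 2 decimals. Igfbp7 differed by 0.32 (adjusted p = 0.507).

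Cdh11 was above background in 3 of 6 tNT lines and in neither NT line. It entered the tests through the tNT lines alone, so its difference of 0.36 (limma, adjusted p = 0.535) is given with no fold. Timp3, Thbs1 and Sparc had lower means in tNT lines, by -0.35, -0.28 and -0.23 (adjusted p = 0.460, 0.581 and 0.505). Col1a1 differed by 0.07 (adjusted p = 0.927), Dcn by 0.04 (adjusted p = 0.967), Vim by 0.05 (adjusted p = 0.872) and Twist1 by -0.13 (adjusted p = 0.874). With 2 NT lines, the spread of NT lines rests on 1 pair.

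The second tested question was whether the markers vary with passage among the 6 tNT lines. In limma, 0 of 17 members passed the threshold, against 0.0% of all tested, and the smallest adjusted p of a member was 0.994. The slope per passage was negative for 15 of 17 members, against 50.9% of all tested, and positive for Sparc and Vim. The median slope was -0.04 log2 units per passage, against -0.0004 over all tested. At an unadjusted p under 0.05 there were 3 of 17 members, against 4.44%.

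Those 3 were Col1a1, with a slope of -0.08 and a standard error of 0.02 (limma, unadjusted p = 0.0157), Dcn, at -0.09 with a standard error of 0.03 (unadjusted p = 0.0205), and Thbs1, at -0.06 with a standard error of 0.02 (unadjusted p = 0.0238). Ccl2 had a slope of -0.11 with a standard error of 0.05 (unadjusted p = 0.0516), and of -0.07 without tNT line 2 (unadjusted p = 0.00454). Neither Ccl2 nor Thbs1 was above background in any of lines 3, 4 and 6. Among tNT lines both were thus above it only at lower passage, and their slopes end in values of dim probes. The slope of Sparc was 0.02 and that of Vim 0.002. The negative direction in most members was known from an earlier analysis of these arrays and is no independent result.

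The lines fall into 3 of passage 17 to 19 (lines 1, 2 and 5) and 3 of passage 25 to 29 (lines 3, 4 and 6). In 6 of 17 members, Col1a1, Thy1, Dcn, Thbs1, Thbs2 and Ccl2, all 3 lines of lower passage lay above all 3 of higher passage, against 4.87% of all tested. Col1a1 was at 6.77 ± 0.23 (SD, n = 3) at lower and 6.07 ± 0.32 (SD, n = 3) at higher passage. Dcn was at 8.96 ± 0.55 and 8.17 ± 0.36 (SD, n = 3 each), though its lines 5 and 6, at 8.44 and 8.43, nearly met. Thy1 was at 9.27 ± 0.36 and 8.75 ± 0.07 (SD, n = 3 each). Thbs2 was at 7.59 ± 0.55 and 6.94 ± 0.02 (SD, n = 3 each). In Dcn, Thy1 and Thbs2 the line farthest from the others at lower passage was tNT line 2. Ccl2 and Thbs1 were not above background in any of the 3 lines of higher passage, so their small spread there, 0.01 and 0.07, is that of dim probes.

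Without tNT line 2 the slope was negative in 15 of 17 members, against 51.4% of all tested, with a median of -0.03. Unadjusted p was then under 0.05 for 5 of 17, against 4.75%, with the dim probes of Thbs1 and Ccl2 among the 5. The 2 lines of passage 17 and 18 lay above all 3 of higher passage in 6 of 17, against 8.59%. The count at an unadjusted p under 0.05 was 8 without tNT line 5, against 7.0% of all tested, and 1 without tNT line 4, against 1.51%. It was 3 without each of lines 1, 3 and 6, against 3.55%, 4.3% and 3.99%, and the count of negative slopes was between 14 and 16 over these omissions. Each passage belongs to 1 line or, at 25, to lines 3 and 6, so line and passage cannot be told apart.

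**Figure D3:**
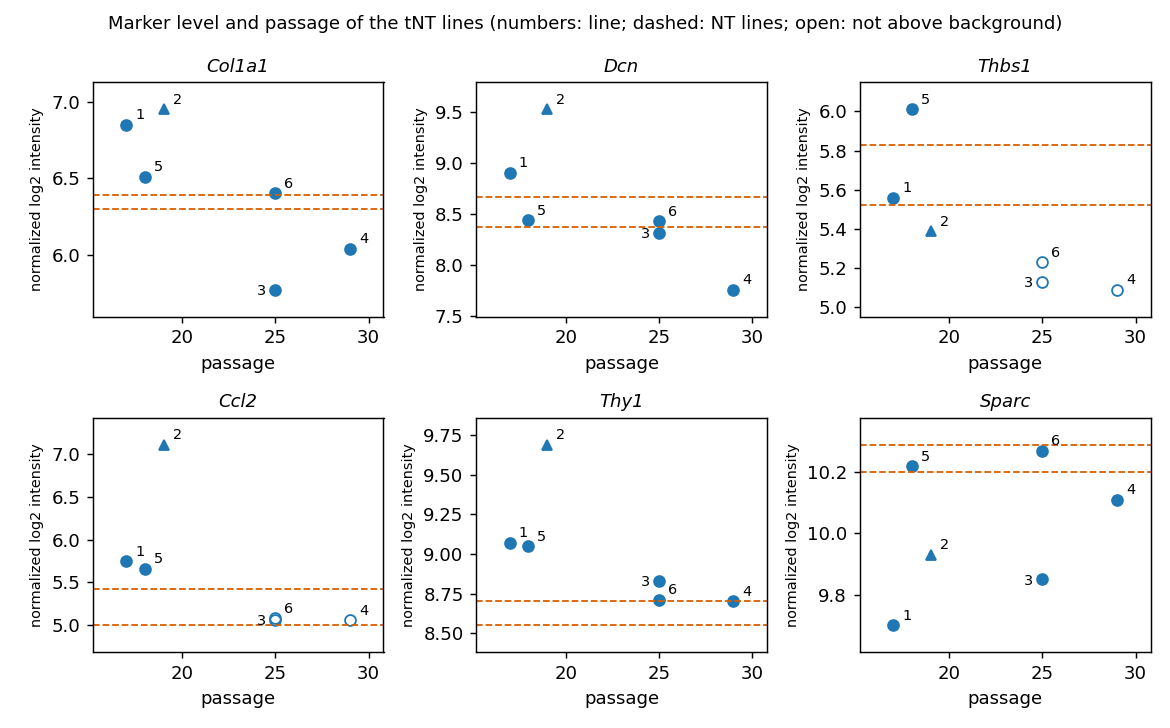
Normalized log2 intensity (vertical axes, a scale for each gene) of 6 markers against passage number of the tNT lines (horizontal axes); the numbers are the lines, the triangle is tNT line 2, open symbols are not above background, and dashed lines are the NT lines, for which no passage is given. Lines 1, 2 and 5 lie above lines 3, 4 and 6 for every gene shown except Sparc. The genes shown apart from Sparc are all among the 6 of 17 members with this split. The members without it, other than Sparc, are not shown.

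Other gene lists were set beside the members to see which cell types and processes moved with them. Smooth muscle and myofibroblast genes, 6 tested of 10, had a median deviation of 0.27 in tNT line 2, and the highest, 0.41, in NT line 1. Embryonic stem cell genes, 13 tested of 15, had medians between -0.06 and 0.08 in all lines. Within the list, tNT line 2 was lowest of the 8 arrays for the transcription factors Nanog, Esrrb and Klf2, with deviations of -0.45, -0.58 and -0.46, and deviated by -0.59 for Klf4, while Pou5f1 and Tdgf1 deviated there by 0.26 and 0.43. Any part of these differences in the marker levels was not tested. One of them, Fbxo15, was higher in tNT lines, at 12.81 against 12.24 (limma, adjusted p = 0.0424). Endothelial and blood progenitor genes, 7 tested of 14, had a median of 0.01 in tNT line 2, where Robo4 and Etv2 deviated by 2.63 and 1.93. Gata2, Eng and Tek deviated there by -0.55, -0.27 and -0.10, and Lmo2 and Esam by 0.11 and 0.01. Of 8 macrophage genes, only Lyz2 was tested, with deviations of 0.65 in tNT line 2 and 0.76 in NT line 1.

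Primitive and parietal endoderm genes, 8 tested of 14, had medians between -0.07 and 0.16. In tNT line 2 Dab2 and Gata6 deviated by 0.72 and 0.64, and Lama1, Amn and Col4a2 by -0.52, -0.22 and -0.21. Trophoblast genes, 7 tested of 13, had a median of -0.10 in tNT line 2, and the keratins Krt8 and Krt18 were lower in tNT lines, by -1.94 and -2.10 (limma, adjusted p = 0.00505 and 0.00464). Primitive streak and mesoderm genes, 4 tested of 12, had a median of -0.29 in tNT line 2 and of 1.14 and 1.38 in the NT lines, and Fgf8, Lhx1 and Wnt3a were lower in tNT lines (limma, adjusted p = 8.85e-04, 0.00112 and 0.0424). These 3 genes entered the tests through the NT lines, where both arrays were above background, while Fgf8 was above it in 1 of 6 tNT lines and Lhx1 and Wnt3a in 0 of 6. Neuroectoderm genes, 4 tested of 11, had a median of -0.24 in tNT line 2. Nes and Ncam1 deviated there by 0.74 and 0.07, and Sox21 and Map2 by -2.38 and -0.55. Of the cumulus cell genes only Inhba was tested, with a deviation of 1.03 in tNT line 2. Apart from Fbxo15, Krt8, Krt18, Fgf8, Lhx1 and Wnt3a, 0 genes of these lists passed the threshold between tNT and NT lines. The part of any of these cell types in the levels of the fibroblast markers was not tested.

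Genes that make collagen ready for secretion and assembly, such as the chaperone Serpinh1 and the prolyl and lysyl hydroxylases, were a further list. Of 18 such genes 13 were tested, with a median deviation of -0.01 in tNT line 2. That line was highest in 4, against 13 of 17 markers and 21.0% of all tested. Of the 13, 0 were called between tNT and NT lines, against 1.86% of all tested. Slopes on passage were negative in 6 of them, against 50.9%. Serpinh1 was at 6.89, 6.42, 7.51, 6.47, 6.29 and 6.60 in tNT lines 1 to 6 and at 6.89 and 6.98 in the NT lines. The list was mixed in tNT line 2. Loxl1, Bmp1, P4ha2 and P4hb, the 4 highest there, deviated by 0.75, 0.54, 0.35 and 0.31. Pcolce, Serpinh1, Crtap and Plod2 deviated there by -0.47, -0.32, -0.30 and -0.29. Genes of the TGF-beta pathway and mesenchymal transcription factors, 12 tested of 17, were highest in tNT line 2 in 1, had a median of -0.004 there, 0 called and 4 negative slopes. Slopes were negative in 6 of 7 endothelial, 6 of 7 trophoblast and 4 of 6 smooth muscle genes, and in Lyz2 and Inhba. They were negative in 5 of 13 embryonic stem cell, 2 of 8 endoderm, 1 of 4 primitive streak and 0 of 4 neuroectoderm genes. The median slope was -0.04 in the smooth muscle genes, as in the markers. Negative slopes were thus not particular to the markers. In none of the 11 lists did a gene pass the threshold for passage.

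**Figure D4:**
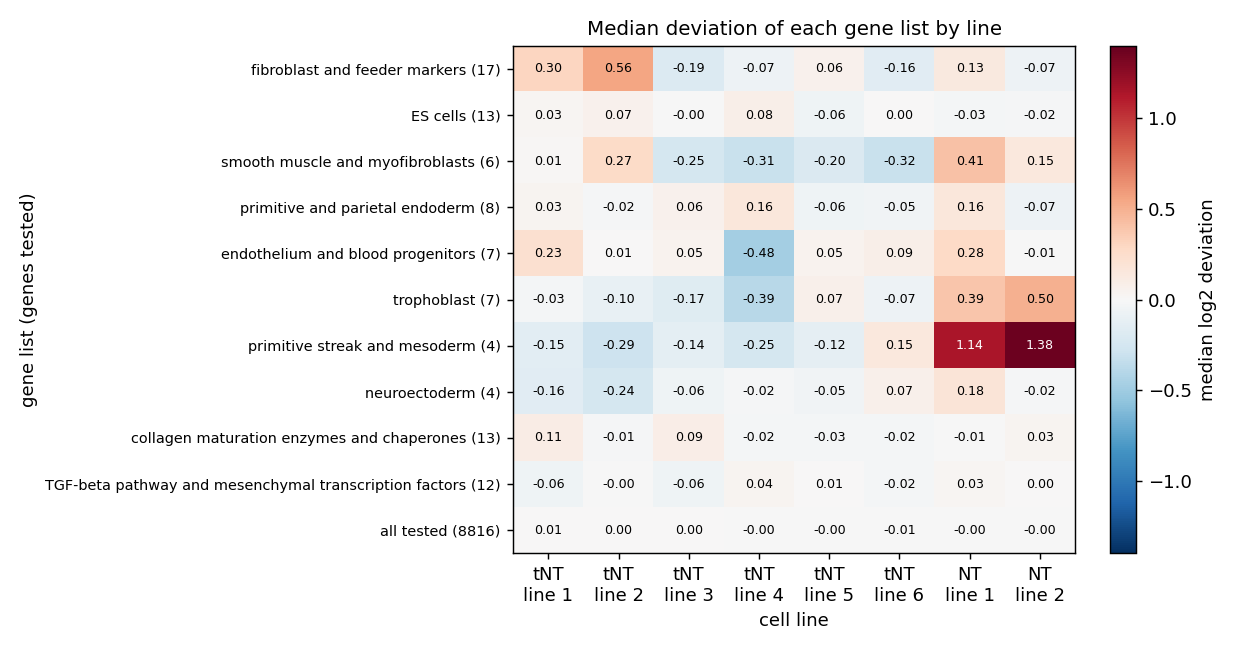
Median log2 deviation from each gene's own median over the 8 arrays, for each gene list (rows, with the number of genes tested) and line (columns). The fibroblast and feeder markers are highest in tNT lines 2 and 1, at 0.56 and 0.30, while the row of all tested genes stays within 0.01 of 0 and the primitive streak list is high in the NT lines.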

How the data were processed

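The deposited values are, per the file headers, the intensity of each probe and its detection p-value on each array. A second deposited table holds the authors' processed values on a log2 scale, with a median of 3.49 on each array. BeadStudio 3.2, RMA and lumi appear in the submitters' processing notes without stated roles, and the authors' background step is not stated there. Intensities were normalized with neqc (limma 3.58.1, R 4.3.3, offset 16) on the log2 scale, which sets all arrays to 1 distribution, so total RNA per cell cannot be read from them. Genes with a probe at a detection p under 0.01 on 2 or more of 8 arrays were tested by their brightest probe, which gave 8816 tests. tNT lines (6) were compared with NT lines (2), and a passage slope was fitted over tNT lines, with lmFit and eBayes, 2-sided, Benjamini-Hochberg adjustment over all tested and a threshold of 0.05. The fits were tested on simulated data with independent noise on each array, which does not cover a line that deviates in many genes. The outcome is not given here, so it does not tell what size of change could be called. The labels do not say that lines came from separate animals, so the p-values reflect only how these lines vary, and the number of arrays limits precision. Probe names came from the array's annotation and promoters from RefSeq, GRCm38.p6.

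The members and lists were chosen with earlier results of these data known. All 30 members are given. Of the lists, up to 3 genes by smallest p were to be named, and of other genes the 8 most correlated with the members' mean, over 8 and over 7 arrays. Robo4, Etv2, Lyz2, Inhba, Serpinh1, Nanog, Esrrb, Klf2, Klf4, Pou5f1, Tdgf1 and the 4 printed promoters were chosen after their values were seen. Gata2, Eng, Tek, Lmo2 and Esam were also added after their values were seen. So were the endoderm, trophoblast, neuroectoderm and collagen maturation genes given with a deviation in tNT line 2. The alternatives were 4 other normalizations, 3 detection filters, every probe, a variance trend, each line left out in turn, line number as a block and passage as 2 ranges. Same-numbered lines did not deviate together (correlations of 0.04 and 0.0002), so numbers were not taken as pairs. Columns were matched to lines by name. Python 3.11.15, numpy 2.4.6, pandas 2.3.3 and matplotlib 3.10.9 were used for summaries and figures.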

Additional observations from a re-analysis of the deposited data

Results flagged for a closer look

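In 18 sets of 6 tNT lines (17 members and their median), the gap of the highest or lowest line to the next was divided by the range and set beside the 95% critical value of Dixon's ratio, which chance passes in about 1 of 20 sets. Lox was lowest in tNT line 3, at 6.48 against 7.26 to 7.44 in the other tNT lines, with a ratio of 0.813. The other 2 values concern tNT line 2, which was singled out from its high values, so their ratios are a description and no test. Ccl2 was at 7.11 there against 5.06 to 5.75, with a ratio of 0.660, and 3 of the other 5 values were not above background. Thy1 was at 9.69 there against 8.70 to 9.07, with a ratio of 0.625, equal to the critical value at the digits given. The members' median deviation in tNT line 2 had a ratio of 0.343, below it.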

How the results depend on the processing

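No member passed the threshold under any of the 18 alternatives between tNT and NT lines or the 16 for passage. The smallest adjusted p of a member was 0.0806 (limma, Fbln2, with line number as a replicate block) and 0.621 for passage (Col1a1, without tNT line 5). Over all tested, 164 passed between tNT and NT lines, and 157 with the replicate block, between 118 and 240 with the other normalizations, filters and variance model, and between 6 and 582 when 1 line was left out (6 without NT line 1, 7 without NT line 2 and 582 without tNT line 2). With 1 NT line left, that line was assumed to vary like the others. The counts of calls for passage were 0 in all of these. Of 288 estimates of members between tNT and NT lines, 277 moved by under 1 SD, and of 237 slopes 231 did. The replicate block, which sets tNT lines 1 and 2 against the NT lines, moved the difference of Fbln2 from 0.44 to 0.89, of Ccl2 to 1.22, of Thy1 to 0.76, of Igfbp7 to 0.72, of Dcn to 0.70, of Lum to 0.60, of Col1a1 to 0.56 and of Col5a1 to 0.40, and turned the sign for Twist1 (0.40), Thbs2 (0.49) and Col6a1 (0.27). Lox differed by 0.45 without NT line 1 and by -0.35 without NT line 2. The sign of the difference was kept in all alternatives for Thy1, Fbln2, Timp3, Thbs1, Ccl2, Sparc, Cdh11 and Igfbp7. The line with the highest median deviation was tNT line 2 wherever it was included, with 0.32 to 0.67. The lowest line was tNT line 3, except tNT line 6 with no filter. Line 2 of tNT was highest in 16 of 27 members with no filter and in 11 of 13 detected on all 8 arrays. Shares over all genes under these filters are not given here. Over all tested, deviations in tNT line 2 had the largest SD, 0.38 against 0.22 to 0.32 in the other lines. The members' median correlation was between 0.26 (no filter) and 0.59 (no quantile step) with tNT line 2 and 0.21 without it.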
